A study of Mus musculus with 28 samples.

Results

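The data described here are the H3K27ac peaks of the RUNX and ETS factor genes in NMuMG, an epithelial line from the mouse mammary gland. The 9 genes are Runx1, Runx2, Runx3 and Cbfb of the RUNX family and its partner, and Ets1, Ets2, Elk1, Elk3 and Gabpa of the ETS family. A peak was taken for a gene when its summit lay within 100 kb of a protein-coding start site of that gene and no start site of another gene was closer. Of 893719 peaks in 15 libraries, 1605 met this rule, 116 of them at promoters and 1489 distal, with between 86 and 134 in a library. A promoter peak has its summit no more than 1000 bp before or 100 bp after a start site, and every other peak is called distal. Overlapping peaks of all libraries were merged, which gave 150 regions for these genes (9 promoter and 141 distal) of 89050 in all. Regions were classed by their median summit, so a region called distal can still overlap a start site. Runx1 had 40 regions, Ets1 30, Ets2 28, Elk3 20, Runx2 19, Runx3 7, Cbfb 4 and Elk1 2. Gabpa had 12 promoter peaks and no region of its own, because its promoter peak covers the start sites of a second gene as well.

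RUNX1, RUNX2 and RUNX3 bind DNA through the Runt domain, and CBFβ, the product of Cbfb, is the partner that strengthens this binding without touching DNA itself. Each Runx gene is read from a distal promoter, P1, and a proximal promoter, P2, which give proteins with different amino termini. ETS factors share a domain that recognises a GGAA core. ETS1 and ETS2 are phosphorylated by ERK, ELK1 and ELK3 join serum response factor at serum response elements and are activated by ERK as well, and GABPα pairs with GABPβ at many housekeeping promoters. Acetylation of lysine 27 of histone H3 marks active promoters and enhancers.

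The libraries came from untreated cells (0h), from cells given TGF-β at 2 ng/ml with the solvent DMSO for 4h or 24h, and from cells that received the MEK inhibitor UO126 at 25 µM (ERKi) 30 min before TGF-β, likewise for 4h or 24h. There were 3 libraries in each of the 5 groups, 15 in all. The cells are 1 subclone (NMuMG/E9) of 1 line, the labels do not say whether the untreated group received DMSO, and no group was given UO126 without TGF-β. The labels do not say whether replicates were separate cultures, so the p-values measure the spread between these libraries, which may in part be technical. In bulk chromatin, more cells carrying the mark and more of the mark per cell cannot be told apart. The libraries held between 50445 and 69180 peaks. The epithelial genes Cdh1, Krt8 and Krt18 had a peak within 2500 bp of a start site in 15 of 15 libraries, Cldn3 in 1 and Epcam in 0. The blood, endothelial, muscle and liver genes Ptprc, Cd3e, Pecam1, Myod1 and Alb had such a peak in 0 libraries.

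Regions are named by their gene and the distance of the median summit to its nearest start site, with a minus sign for upstream. The 300 bases of the mm9 plus strand around the summits of 5 distal regions that carry the results below are as follows, with matches on either strand to TGTGGT (RUNX), GGAAGT (the ETS core with its flank) and TGANTCA (AP-1) in capitals. The first had the largest difference between TGF-β and untreated cells among the tested regions. The second appeared at 4h and 24h and is the only 1 of the 5 with all 3 motifs. The third and the fourth had a higher pileup at 24h than at 24h with ERKi, though neither difference passed the main test described below. The last was found in every 24h library and in no untreated, 4h or ERKi 4h library.
Ets1 -6.75 kb, chr9:32436904-32437203: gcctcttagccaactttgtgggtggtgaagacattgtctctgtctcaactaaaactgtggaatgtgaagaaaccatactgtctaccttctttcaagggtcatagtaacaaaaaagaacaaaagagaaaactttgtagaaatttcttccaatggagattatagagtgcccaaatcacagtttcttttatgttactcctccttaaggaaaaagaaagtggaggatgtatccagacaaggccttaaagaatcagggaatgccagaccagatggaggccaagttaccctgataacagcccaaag
Ets1 +53.6 kb, chr9:32557073-32557372: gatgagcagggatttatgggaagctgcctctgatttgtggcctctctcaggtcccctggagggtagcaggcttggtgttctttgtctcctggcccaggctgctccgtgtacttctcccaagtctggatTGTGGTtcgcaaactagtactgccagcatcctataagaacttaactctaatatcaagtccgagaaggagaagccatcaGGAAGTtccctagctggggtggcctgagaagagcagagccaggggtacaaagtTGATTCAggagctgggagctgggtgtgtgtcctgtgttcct
Runx1 -78 kb, chr16:92904121-92904420: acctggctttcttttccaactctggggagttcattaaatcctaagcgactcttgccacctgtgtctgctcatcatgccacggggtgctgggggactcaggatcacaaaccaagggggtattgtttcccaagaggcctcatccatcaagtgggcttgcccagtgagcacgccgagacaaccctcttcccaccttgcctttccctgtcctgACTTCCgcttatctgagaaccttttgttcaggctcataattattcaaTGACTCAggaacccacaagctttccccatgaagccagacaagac
Elk3 -32.4 kb, chr10:92806089-92806388: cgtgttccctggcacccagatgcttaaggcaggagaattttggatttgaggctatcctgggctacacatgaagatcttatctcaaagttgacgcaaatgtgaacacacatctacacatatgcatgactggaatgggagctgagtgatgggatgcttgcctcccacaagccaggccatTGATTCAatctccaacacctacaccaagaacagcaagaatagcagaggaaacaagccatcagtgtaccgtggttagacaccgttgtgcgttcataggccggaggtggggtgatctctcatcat
Runx1 +37.6 kb, chr16:92788508-92788807: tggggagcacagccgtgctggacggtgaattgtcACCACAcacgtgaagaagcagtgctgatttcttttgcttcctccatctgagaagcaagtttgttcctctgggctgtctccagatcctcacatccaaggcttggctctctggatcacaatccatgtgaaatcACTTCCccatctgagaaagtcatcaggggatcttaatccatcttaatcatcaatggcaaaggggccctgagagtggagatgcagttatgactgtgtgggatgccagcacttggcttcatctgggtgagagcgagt

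The first question was how the mark at these genes changed with TGF-β. For each peak, the number of fragments stacked at the summit (the pileup) was recovered from the deposited fold enrichment and p-value. It was compared on the log2(pileup + 1) scale after the libraries were brought to a common median, and values on this common scale are called centred pileup. Only regions with a peak in every library were tested, 44 of the 150 (29.3%, against 30.2% of all regions), and none of them belonged to Runx3 or Gabpa. The tested regions are therefore all acetylated in untreated cells. Regions with a peak in every untreated library but not in every other library, such as Elk3 +14.3 kb, were not tested. Some losses thus fall outside this test. Another 35 of the 150 (23.3%) were found in 1 library, against 22.6% of all regions.

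At 4h of TGF-β, 6 of the 44 regions were higher than at 0h (limma, adjusted p under 0.05), or 13.6%, where 3.58% of all 26934 tested regions were called higher. These were 2 regions of Ets1, 3 of Elk3 and 1 of Runx1. No member region was lower, against 0.197% of all regions. At 24h, 12 regions were higher (27.3%, against 10.2% of all), 5 of them at Elk3, 3 at Runx1, 3 at Ets1 and 1 at Ets2. One region, at Ets2, was lower at 24h, where 7.84% of all regions were. The median difference of the 44 regions was 0.26 at 4h and 0.22 at 24h on the log2 scale, and that of all regions was -0.05 and -0.07. Libraries of the same replicate number deviated together, and with the number as a block 14 regions were higher at 4h (31.8%, against 11.7% of all) and 2 lower (against 5.9%). At 24h the block gave 21 higher (47.7%, against 17.6%) and 9 lower, all of them at Ets2 (against 20.1%). Without 0h replicate 1, or without 4h replicate 3, 2 regions were called higher at 4h.

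**Figure D1:**
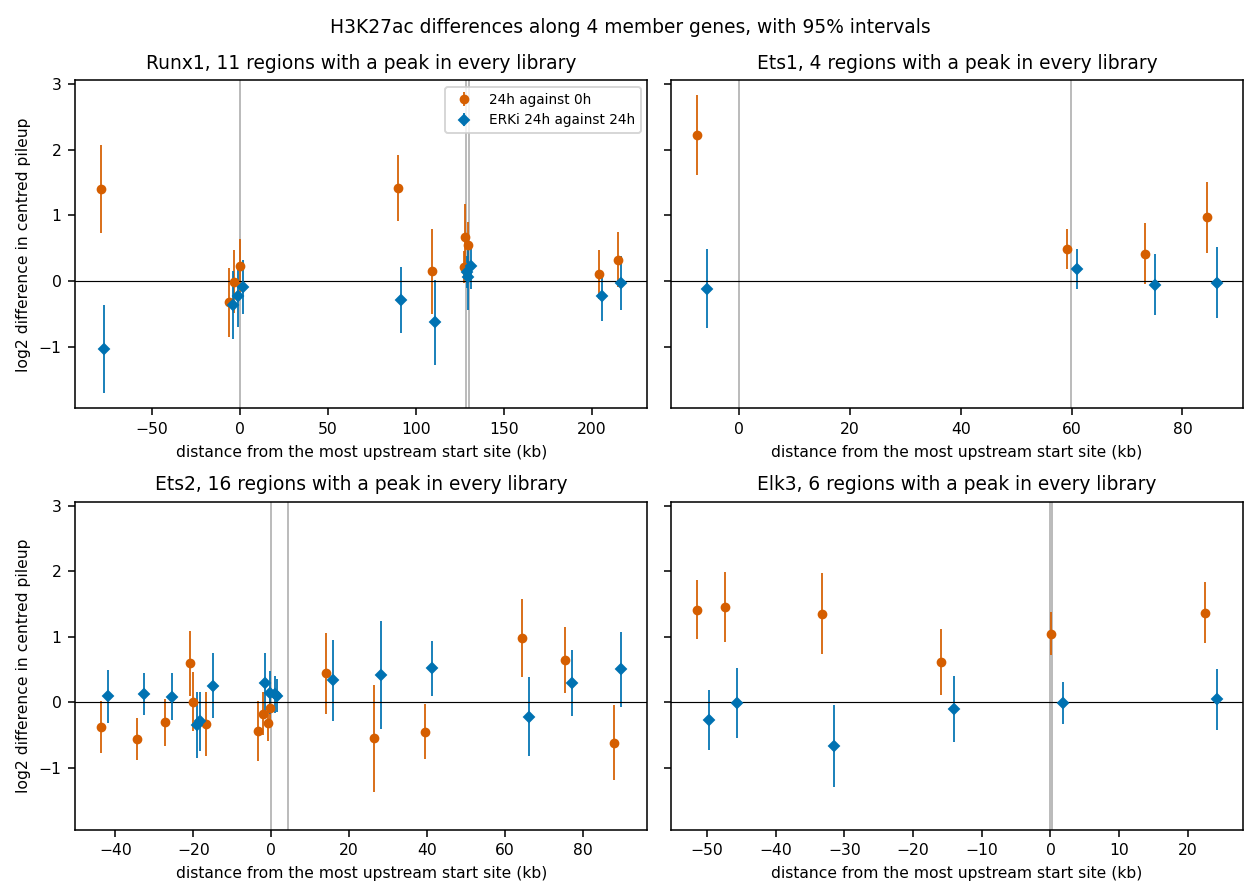
Log2 difference in centred pileup against the distance from the most upstream start site in kb, for the regions of Runx1, Ets1, Ets2 and Elk3 with a peak in every library. Orange circles give 24h against 0h and blue diamonds ERKi 24h against 24h, drawn slightly apart, bars are 95% intervals of the fit and grey lines are start sites. All 6 Elk3 regions and all 4 Ets1 regions lie above 0 at 24h, while Ets2 has regions on both sides.

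The result depended on the measure. MACS2 divides the pileup by a local background, the signal it expects around the summit, and that background rose with the pileup in each of the 6 regions called higher at 4h (log2 differences of 0.72 to 1.52) and the 12 called higher at 24h (0.51 to 1.77). By fold enrichment, pileup over background, 4 of the 6 and 6 of the 12 differences were still above 0, and 1 and 2 of them were called. At 24h those 2 were Ets1 -6.75 kb and Runx1 -37.9 kb. Fold enrichment also called Ets2 -19.97 kb higher (log2 difference 0.67, adjusted p = 0.0199) and the intronic regions Runx1 +85.4 kb and Runx1 +74.5 kb lower (-0.63 and -0.71, adjusted p = 0.00794 and 0.00338). At Runx1 +85.4 kb the pileup itself was higher at 24h (log2 0.33 ± 0.20, adjusted p = 0.309, 0.0244 with the block) while its background rose by 0.96. At Runx1 +74.5 kb the pileup differed by 0.10 ± 0.18 (adjusted p = 0.798) and the background by 0.81. Which control, if any, entered that background is not given in the sources used here.

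**Figure D2:**
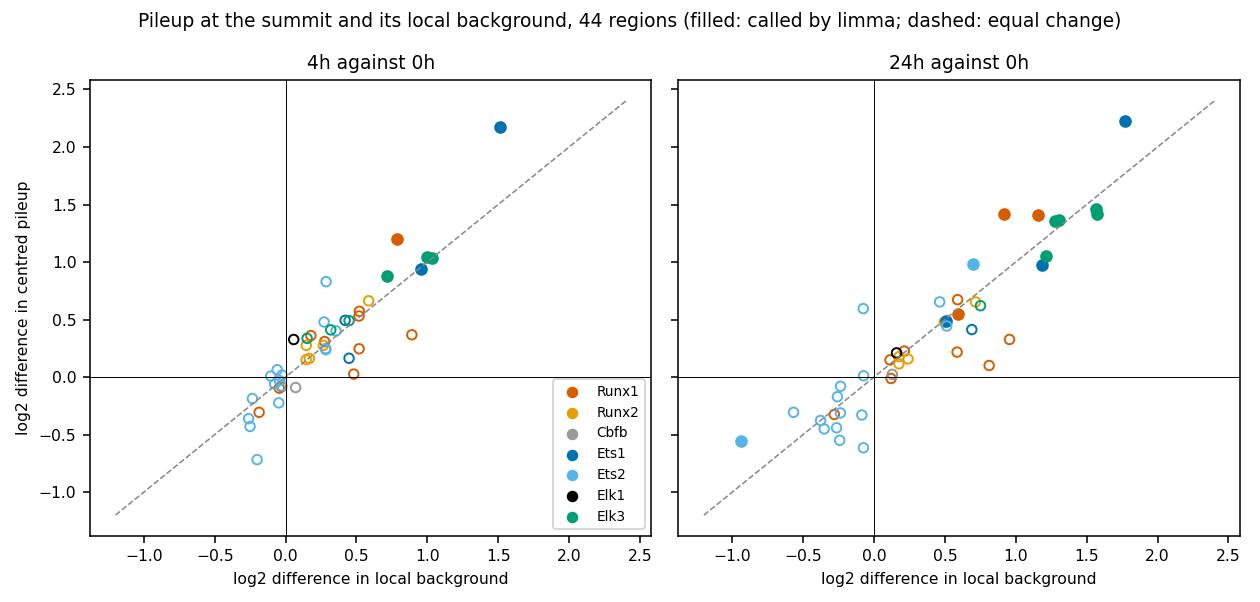
Log2 difference in centred pileup against the log2 difference in local background at the same summits, for 44 regions at 4h (left) and 24h (right) against 0h. Filled points passed the test on pileup, and the dashed line marks an equal change of both. Every region called higher lies to the right of 0, where the background was higher too, and Ets1 -6.75 kb is farthest up at both times.

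Runx1, whose product is known for blood development and is also made in mammary epithelium, has annotated starts in 2 clusters 130 kb apart, P1 upstream and P2 downstream. Both promoter regions of the gene lay at P2, each found in 15 of 15 libraries, and P1 had none. P2 had 24 of the 40 regions nearest to it and P1 16, among them Runx1 +877 bp (chr16:92824181-92826378), which overlaps the P1 starts and had its median summit in an intron. The P2 promoter region Runx1 -84 bp (chr16:92695353-92696997) in a coding exon had centred pileups of 148, 125 and 112 at 0h, 205, 193 and 159 at 4h and 225, 171 and 171 at 24h. All TGF-β libraries were above all untreated ones. The log2 difference was 0.53 ± 0.16 (SE) at 4h (adjusted p = 0.087, 0.000464 with the block) and 0.55 ± 0.16 at 24h (adjusted p = 0.0232), but its fold enrichment differed by -0.04 at 24h, and the call was lost without 0h replicate 2, 0h replicate 3 or 24h replicate 1 (adjusted p = 0.0613, 0.11 and 0.146). The second P2 promoter region, Runx1 -360 bp (chr16:92697703-92699001), had 175, 165 and 200.1 at 0h and 217, 200.2 and 209.6 at 24h, a log2 difference of 0.22 ± 0.12 that did not pass the test (adjusted p = 0.242).

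The largest differences at Runx1 were in distal regions far from both promoters. The region Runx1 -37.9 kb (chr16:92734593-92736013), in the intron between P1 and P2, had centred pileups of 14.7, 20.1 and 20.9 at 0h, 38.3, 41.7 and 50.9 at 4h and 51.5, 39.9 and 63.3 at 24h. Every TGF-β library was well above every untreated one, and the difference was 2.29-fold at 4h (log2 1.20 ± 0.24, adjusted p = 0.00674) and 2.67-fold at 24h (log2 1.42 ± 0.24, adjusted p = 0.000419). With ERKi the same region stood at 49.8, 70.7 and 61.5 at 4h and 51.1, 35.3 and 39 at 24h, again above all untreated libraries, and the ERKi differences did not pass the test (adjusted p = 0.971 and 0.571). Its 4h call was lost without 0h replicate 1 or 4h replicate 3 (adjusted p = 0.0533 and 0.0501).

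The intergenic region Runx1 -78 kb (chr16:92903722-92905246), upstream of P1, behaved otherwise. It was at 19.95, 25 and 26.3 in untreated cells and 38.3, 18.5 and 35.8 at 4h, where the groups overlapped, and at 66.3, 55.2 and 72.2 at 24h, 2.65-fold over 0h (log2 1.40 ± 0.32, adjusted p = 0.00443). With ERKi for 24h it was at 35.2, 18.5 and 43.7, each below the lowest 24h library. That difference from 24h was -1.04 ± 0.32 on the log2 scale (95% interval -1.72 to -0.37, adjusted p = 0.0544), and it passed with the replicate block (adjusted p = 0.000586) and without 4h replicate 2, ERKi 4h replicate 3 or ERKi 24h replicate 3 (adjusted p = 0.0379, 0.0438 and 0.0389). The local background was lower too, by log2 -0.69, and the fold enrichment differed by -0.39 (adjusted p = 0.377). By pileup this was the largest difference between ERKi and DMSO among the 44 regions. Around P1 itself, Runx1 -2.26 kb and Runx1 -5.02 kb had 24h differences of -0.01 and -0.32 with adjusted p of 0.985 and 0.454. Over the P1 starts, Runx1 +877 bp had 64.1, 61 and 49.3 at 0h and 80.3, 52.8 and 73.2 at 24h, where the groups overlapped. Called with the block alone were Runx1 +85.4 kb at 4h (log2 0.37, adjusted p = 0.449 without it and 0.0244 with it) and Runx1 +231 bp (chr16:92697102-92697584) at both times (log2 0.57 and 0.67, adjusted p = 0.269 and 0.0611 without it and 0.000739 and 3.59e-05 with it).

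**Figure D3:**
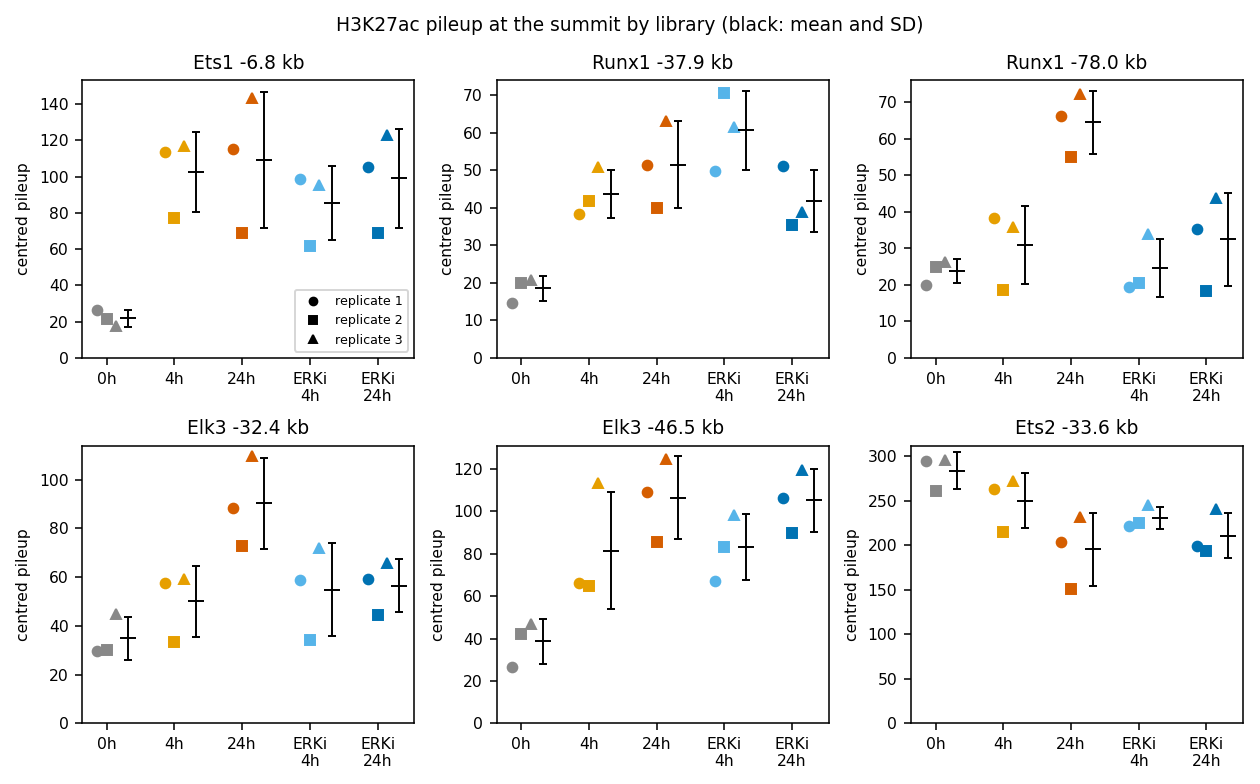
Centred pileup (fragments, linear axis from 0) in each library for 6 regions, with black marks for the mean and SD of each group of 3 libraries. Ets1 -6.8 kb and Runx1 -37.9 kb are high in all TGF-β groups, Runx1 -78.0 kb and Elk3 -32.4 kb are highest at 24h without ERKi, and Ets2 -33.6 kb is highest at 0h.

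Runx2, the osteoblast factor of the family, also has starts in 2 clusters, 79.9 kb apart. All 163 of its peaks, in 19 regions, were nearest to P2, and none had a P1 start as its nearest. The P2 promoter region Runx2 +69 bp (chr17:44870454-44873751) averaged 188 ± 14.9 (SD, n = 3) in untreated cells, 209.8 ± 6.08 after 4h of TGF-β and 209.6 ± 17.3 after 24h. The 95% interval of its 24h difference was -0.09 to 0.40. The intronic region Runx2 +43.8 kb (chr17:44826209-44829040) had 71.6, 63.5 and 97.4 at 0h, 129, 94.3 and 146 at 4h and 109, 117 and 136 at 24h. Its untreated values overlapped those at 4h, the 24h values did not overlap them, and the log2 differences of 0.66 ± 0.24 and 0.65 ± 0.24 passed the test only with the block (adjusted p = 0.163 and 0.0653 without it, 0.000247 and 0.000101 with it). The pair Runx2 +25.1 kb (chr17:44845616-44846872) and Runx2 +24.2 kb (chr17:44847104-44848913) had no called TGF-β difference with or without the block. With ERKi for 24h, Runx2 +25.1 kb stood at 82.1, 109 and 99.3 against 121, 130.0 and 143 at 24h, every ERKi library lower (log2 -0.44 ± 0.15, adjusted p = 0.0804, 0.0043 with the block), and its fold enrichment differed by -0.12 (adjusted p = 0.811). The region Runx2 +5.83 kb (chr17:44865570-44866204) was called higher at 24h with the block alone (log2 0.48, adjusted p = 0.108 without it and 0.0193 with it).

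Runx3, which is known for its role in T cells and in gut and nerve cells, had no promoter peak in any library. Its 7 regions lay 47.1 to 77.2 kb upstream or 51.4 kb downstream of a start site, and no region was found in more than 9 of 15 libraries. Peaks near Runx3 were few in untreated cells, 0, 1 and 1 per library, and more at 24h, 5, 2 and 5.

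Cbfb is read from 1 annotated start, which lies inside the region Cbfb +335 bp, found in 15 of 15 libraries. The coding exon region Cbfb +335 bp (chr8:107694557-107696116) stood at 239.9, 259 and 199 at 0h and 262, 242 and 205 at 24h, where the groups overlapped (log2 0.02 ± 0.14, adjusted p = 0.946). With ERKi for 24h it stood at 198, 169 and 171, all below the 24h libraries, a log2 difference of -0.39 ± 0.14 that was called with the block (adjusted p = 0.0895 without, 0.0024 with it), and by quantile normalization and percentile of pileup (adjusted p = 0.0485 and 0.029) but not by the test above. Its fold enrichment differed by -0.20 (adjusted p = 0.419). The promoter region Cbfb -338 bp (chr8:107694000-107694386) was found in 13 libraries, and in the untreated ones stood at 64.8, 52.3 and 39.4. The intronic region Cbfb +16.5 kb (chr8:107710726-107711435) had no peak in untreated cells, 16.5, 27.1 and 22.6 at 4h and 48, 47 and 54.4 at 24h. It was present in every TGF-β library except ERKi 4h replicate 2.

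Ets1, a factor of lymphoid and vascular cells that is also linked with invasive epithelial cells, had the region with the largest difference of the set. The intergenic region Ets1 -6.75 kb (chr9:32435790-32438275), upstream of the first of its 2 starts, had centred pileups of 26.7, 21.3 and 17.6 at 0h, 114, 77.2 and 117 at 4h and 115, 69.2 and 143 at 24h. The lowest TGF-β library was far above the highest untreated one, with a 4.51-fold difference at 4h (log2 2.17 ± 0.29, adjusted p = 0.000281) and a 4.68-fold difference at 24h (log2 2.23 ± 0.29, adjusted p = 4.2e-05). Its local background rose as well, from 3.61 ± 0.115 (SD, n = 3) to 15.8 ± 6.49 at 24h, and the fold enrichment still differed by 0.64 at 4h and 0.45 at 24h (adjusted p = 0.0455 and 0.0488). With ERKi it was at 98.7, 61.9 and 95.4 at 4h and 105, 69.1 and 123 at 24h. These values overlapped those without ERKi, and the 95% interval of the difference was -0.87 to 0.34 at 4h and -0.72 to 0.49 at 24h.

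The second Ets1 start, 59.8 kb downstream, carried the promoter peak. There Ets1 -430 bp (chr9:32502972-32503461) was found in 13 libraries, in 3 of 3 in each group except ERKi 24h, where it was found in 1. Next to it Ets1 +281 bp (chr9:32503579-32505157) overlaps this start and was found in 15 of 15 libraries. Ets1 +281 bp rose from 118, 104 and 96.3 at 0h to 167, 137 and 144 at 24h, with no overlap (log2 0.49 ± 0.15, adjusted p = 0.0247). Its fold enrichment differed by -0.02, and the call was lost without 0h replicate 2, 0h replicate 3 or 24h replicate 1 (adjusted p = 0.0647, 0.104 and 0.131). With the block it was called higher at 4h as well (log2 0.49, adjusted p = 0.0727 without it and 0.000602 with it), and so was Ets1 +14.3 kb (chr9:32517216-32518741) at 24h (log2 0.41, adjusted p = 0.236 and 0.0147). The intronic region Ets1 +25.6 kb (chr9:32528197-32529948) had 40.2, 34.9 and 43.8 at 0h, 75.1, 58.8 and 102 at 4h and 68.1, 75 and 93.9 at 24h. Its untreated libraries were all lower than the others, by log2 0.94 ± 0.26 at 4h (adjusted p = 0.0481) and 0.97 ± 0.26 at 24h (adjusted p = 0.0123). The 4h call was lost in 9 of the 15 analyses that left out 1 library (adjusted p up to 0.249), the 24h call was lost without 24h replicate 3 (adjusted p = 0.0561), and fold enrichment reversed both (log2 -0.03 and -0.22). The promoter window of the first start held a peak in 1 library, 24h replicate 1, as region Ets1 -784 bp at chr9:32442975-32443166.

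Ets2, a close relative of Ets1 on chromosome 16, had the most regions found in every library, 16 of its 28. Its promoter region Ets2 +81 bp (chr16:95923550-95923959) stood at 352, 285 and 305 at 0h, 267, 238 and 301 at 4h and 266, 227 and 265 at 24h. A summit lay in a promoter window of Ets2 in 11 of 15 libraries. Each 24h library was below every untreated one, and the log2 difference of -0.31 ± 0.13 was called with the block (adjusted p = 0.121 without it and 0.0125 with it). The upstream region Ets2 -33.6 kb (chr16:95888628-95891350), the only one of the 44 that was called lower, fell from 295, 261 and 296 to 204, 151 and 232 (log2 -0.56 ± 0.15, adjusted p = 0.0165). Its background fell more, by log2 -0.94, so that its fold enrichment was higher at 24h (0.38, adjusted p = 0.128), and the call was lost without 0h replicate 1, 0h replicate 3 or 24h replicate 2 (adjusted p = 0.0679, 0.0602 and 0.09). Without 24h replicate 3, 2 member regions were called lower.

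Ets2 did not move in 1 direction. With the replicate block, 9 of its 16 tested regions were lower at 24h and 4 were higher, the latter at Ets2 -19.97 kb, Ets2 +10.6 kb, Ets2 +60.9 kb and Ets2 +71.9 kb. Besides the promoter and Ets2 -33.6 kb, those lower were Ets2 -42.7 kb, Ets2 -26.4 kb, Ets2 -15.9 kb, Ets2 -2.61 kb, Ets2 +22.9 kb, Ets2 +36.1 kb and Ets2 +84.6 kb, with adjusted p of 0.0133, 0.0259, 0.0314, 0.000719, 0.0349, 0.00847 and 0.019 with the block. Of the regions higher at 24h, Ets2 -19.97 kb, Ets2 +10.6 kb and Ets2 +71.9 kb had adjusted p of 0.00036, 0.026 and 4.94e-05 with the block and 0.097, 0.367 and 0.0685 without it. At 4h the block called Ets2 -19.97 kb and Ets2 +71.9 kb higher (adjusted p = 1.66e-05 and 0.00399) and Ets2 +36.1 kb and Ets2 +84.6 kb lower (adjusted p = 0.0251 and 0.0146). The intergenic region Ets2 +60.9 kb (chr16:95988071-95989689) was higher at 24h without the block too, with 28.2, 41.1 and 43.8 at 0h, 27, 32 and 49.97 at 4h and 57.6, 94.9 and 74.1 at 24h (log2 0.98 ± 0.28, adjusted p = 0.0215). All its 24h values lay above those of 0h and 4h, and the call was lost without 0h replicate 1, 24h replicate 2 or 24h replicate 3 (adjusted p = 0.112, 0.0813 and 0.051). With ERKi for 24h, Ets2 +36.1 kb (chr16:95962784-95965155) was at 86.6, 103 and 99.3 against 67.2, 57.5 and 77.1 (log2 0.52 ± 0.20, adjusted p = 0.133, 0.00444 with the block), and every ERKi library was the higher. Its background rose by as much, 0.51, and the fold enrichment turned to -0.02 (adjusted p = 0.972). At 0h it had 76.8, 94.5 and 106. Among the Ets2 regions Ets2 -2.61 kb was also called higher with ERKi at 24h with the block (log2 0.30 ± 0.10, adjusted p = 0.0235) and Ets2 -19.97 kb lower (log2 -0.35 ± 0.12, adjusted p = 0.0386), where the fold enrichment differed by 0.04 and -0.43.

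Elk3, also called Net, is a ternary complex factor that represses its targets until ERK phosphorylates it. Of its 6 tested regions 5 were called higher at 24h and 3 at 4h. The region Elk3 -46.5 kb (chr10:92820199-92821117) stood at 26.7, 42.4 and 47.1 at 0h, 66.3, 65 and 113 at 4h and 109, 85.6 and 125 at 24h, 2.75-fold higher at 24h (log2 1.46 ± 0.25, adjusted p = 0.000564). Its neighbour Elk3 -50.6 kb (chr10:92823765-92825034) had 26.7, 33.7 and 36.2 at 0h and 88.2, 77.4 and 95.9 at 24h (log2 1.42 ± 0.22, adjusted p = 0.000184). At both, all TGF-β libraries were above all untreated ones. The region Elk3 +750 bp (chr10:92771569-92773808), with its median summit in an intron, overlaps annotated Elk3 starts and was found in 15 of 15 libraries. It rose from 77.6, 87 and 75.5 to 153, 152 and 139.6 at 4h (log2 0.88 ± 0.15, adjusted p = 0.00253) and 190.5, 137 and 176 at 24h (log2 1.05 ± 0.15, adjusted p = 0.00013). The local background rose with them, so that the 24h differences by fold enrichment were -0.11 at Elk3 -46.5 kb, -0.16 at Elk3 -50.6 kb and -0.16 at Elk3 +750 bp, none of them called. At 4h the calls at the 2 upstream regions, log2 1.04 ± 0.25 and 1.03 ± 0.22, were lost without 0h replicate 1 (adjusted p = 0.169 and 0.0654) or 4h replicate 3 (adjusted p = 0.169 and 0.0725).

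The intronic region Elk3 +23.2 kb (chr10:92749792-92751234) had 13.2, 21.3 and 20.9 at 0h, 21.7, 27.1 and 24.5 at 4h and 53.2, 38.8 and 54.4 at 24h (log2 1.37 ± 0.22 at 24h, adjusted p = 0.000328), and with ERKi for 24h 48.8, 44.4 and 57. The 24h and ERKi 24h values overlapped, with a 95% interval of -0.42 to 0.52 for their difference. The upstream region Elk3 -32.4 kb (chr10:92805119-92807156) had 29.7, 29.99 and 44.9 at 0h, 57.6, 33.2 and 59.4 at 4h and 88.2, 72.7 and 109.7 at 24h, and 59.4, 44.4 and 65.6 with ERKi for 24h. The log2 difference was 0.49 ± 0.30 at 4h (adjusted p = 0.528, 0.0355 with the block) and 1.35 ± 0.30 at 24h (adjusted p = 0.00329), and the ERKi 24h values overlapped those at 4h. Here each ERKi 24h library was below each 24h library (log2 -0.66 ± 0.30, adjusted p = 0.203, 0.00276 with the block). The background differed by nearly as much, -0.62, and the fold enrichment by -0.07 (adjusted p = 0.876). The sixth region, Elk3 -15 kb (chr10:92787886-92789460), was called higher at 24h with the block alone (log2 0.62, adjusted p = 0.0838 without it and 0.00261 with it). The Elk3 promoter region Elk3 -189 bp (chr10:92773954-92774215) was called in 4 libraries, 2 at 0h, 1 at 4h and 1 at 24h. Elk3 +750 bp, called distal by its summit, overlaps the starts in this merged set and was found in all 15.

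Elk1, the best known ternary complex factor, lies on the X chromosome within an intron of an annotated Uxt transcript and had 2 regions. The region Elk1 +171 bp (chrX:20526860-20527807) in an intron stood at 46.9, 64.7 and 30.7 at 0h, 50.6, 68.6 and 53.7 at 4h and 55, 61 and 43.5 at 24h, which overlapped (log2 0.21 ± 0.31 at 24h, 95% interval -0.43 to 0.86). The promoter region Elk1 -412 bp (chrX:20527953-20528397) was found in 5 libraries, whereas Elk1 +171 bp, found in 15, overlaps the annotated start. The start sites of Gabpa and of Atp5j, a subunit of ATP synthase on the opposite strand, are 379 bp apart, and 1 region, chr16:84834391-84836733, covers both. Its centred pileup was 275 ± 25.5 (SD, n = 3) at 0h, 263 ± 14.4 at 4h, 277 ± 18.4 at 24h, 259 ± 8.39 at ERKi 4h and 295 ± 34.7 at ERKi 24h. The groups overlapped, the 24h difference was 0.01 ± 0.12 on the log2 scale (95% interval -0.25 to 0.27), and the mark cannot be divided between the genes.

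The second measure was the presence of a peak, which brings in regions with no peak in untreated cells. A region was counted as gained when all 3 libraries of a group had a peak and none of the compared group did, and as lost in the reverse case. At 24h against 0h, 9 of 128 member regions with a peak in either group were gained (7.03%, against 5.98% of all regions) and 1 was lost (0.781%, against 2.52%). At 4h, 3 of 104 were gained (2.88%, against 1.65%) and none lost (against 0.565%). The share gained at 24h was thus near that of all regions. Cbfb +16.5 kb and Ets1 +53.6 kb were gained at both times. A library without a peak may still hold signal below the threshold of the caller.

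The region Runx1 +47.6 kb (chr16:92777774-92779593), in the intron downstream of P1, had no peak in the 9 libraries at 0h, 4h or ERKi 4h. At 24h it was at 115, 31.8 and 86 and with ERKi for 24h at 41.3, 15.9 and 35, lower in each replicate number. Its neighbour Runx1 +37.6 kb (chr16:92788223-92788999) was at 47.1, 17.7 and 31.6 at 24h and was found in 1 of 3 ERKi 24h libraries. No other intronic Runx1 region had a peak in all 24h libraries and in no untreated one. At Runx2, Runx2 +81.6 kb (chr17:44789688-44790271) had 50.6, 44.6 and 39.5 at 24h, a peak in 2 of 3 libraries at 4h, in 3 of 3 at ERKi 4h (21.5, 26.7 and 28.7) and in 1 of 3 at ERKi 24h, and Runx2 +52.9 kb (chr17:44818669-44818921) had 12.1, 17.7 and 13.8 at 24h and no peak in the other 12 libraries. At Ets1, Ets1 +53.6 kb (chr9:32556725-32558270) in an intron had 12.1, 17.3 and 16.9 at 4h and 41, 37.6 and 56.3 at 24h, and every 24h value was above every 4h value.

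At 24h Ets1 -41 kb (chr9:32402353-32403564), Ets1 -26.9 kb (chr9:32476014-32477239) and Elk3 -21.9 kb (chr10:92795457-92795946) were gained too, with centred pileups of 33.1, 16.5 and 27.7, 31.3, 21.2 and 26.7 and 26.1, 18.9 and 30.6. The last was absent from all ERKi 24h libraries. At 4h Ets1 +97.7 kb (chr9:32600198-32601565) was gained as well, with 15.6, 21 and 20.7, and was found in 1 of 3 libraries at 24h. With ERKi it was found in 3 of 3 libraries at 4h and in 3 of 3 at 24h. The only region lost, Elk3 +14.3 kb (chr10:92758964-92759683) in an Elk3 intron, had 16.2, 21.3 and 16.5 at 0h and no peak at 24h.

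With ERKi for 4h, 2 of 108 member regions were gained against 4h (1.85%, against 0.316% of all) and none lost (against 0.449%). Both were at Runx1, Runx1 -42.6 kb (chr16:92739966-92740569) with 26.4, 24.2 and 24.6 and Runx1 -31.2 kb (chr16:92857338-92857941) with 17.6, 21.7 and 23.6, and each had a peak in at least 1 untreated library. With ERKi for 24h, none of 134 was gained (against 1.73%) and 2 were lost (1.49%, against 1.41%), namely Runx2 +52.9 kb and Elk3 -21.9 kb.

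**Figure D4:**
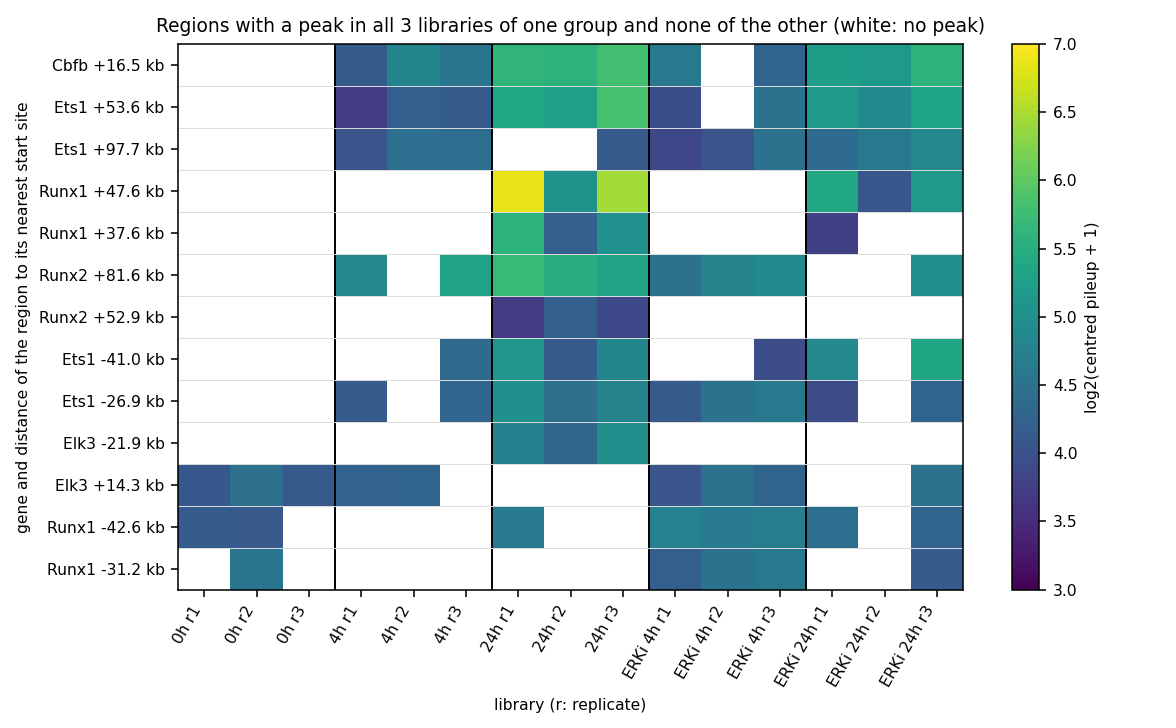
Log2(centred pileup + 1) in each of the 15 libraries (columns) for the 13 regions with a peak in all 3 libraries of one group and in none of the compared group (rows, named by gene and distance to the nearest start site). White means no peak. The 3 untreated libraries are white for 9 regions that have a peak in all 3 libraries at 24h.

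The number of distal peaks per gene was compared over libraries by exact permutation tests, two-sided, in which 3 libraries against 3 cannot go below p = 0.1. At 24h against 0h, 5 of the 8 genes with distal peaks reached that p with more peaks in every 24h library, namely Runx1, Runx2, Runx3, Cbfb and Ets1. Of all 13647 genes with a distal peak in either group, 12.7% had more without overlap and 4.32% fewer. The genes behind the shares given here were not matched to the members by their number of distal peaks, so they are no like-for-like background. Runx1 had 22, 18 and 19 distal peaks at 0h and 27, 26 and 35 at 24h. Runx2 had 6, 8 and 7 at 0h and 13, 13 and 12 at 24h. Ets1 had 10, 8 and 13 at 0h and 17, 15 and 25 at 24h. Elk3 (14, 15 and 17 against 19, 15 and 19) and Ets2 (24, 24 and 22 against 23, 23 and 29) overlapped, although 5 Elk3 regions had risen in pileup. At 4h only Cbfb had more without overlap, 3, 3 and 3 against 1, 2 and 2 (all genes, 4.48% more and 1.22% fewer). The libraries at 24h held 56759 to 68050 peaks in all, against 52221 to 59658 at 0h, and the part of this in the counts per gene was not tested. Counting only peaks within 50 kb left 2 such differences in place of the 6.

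**Figure D5:**
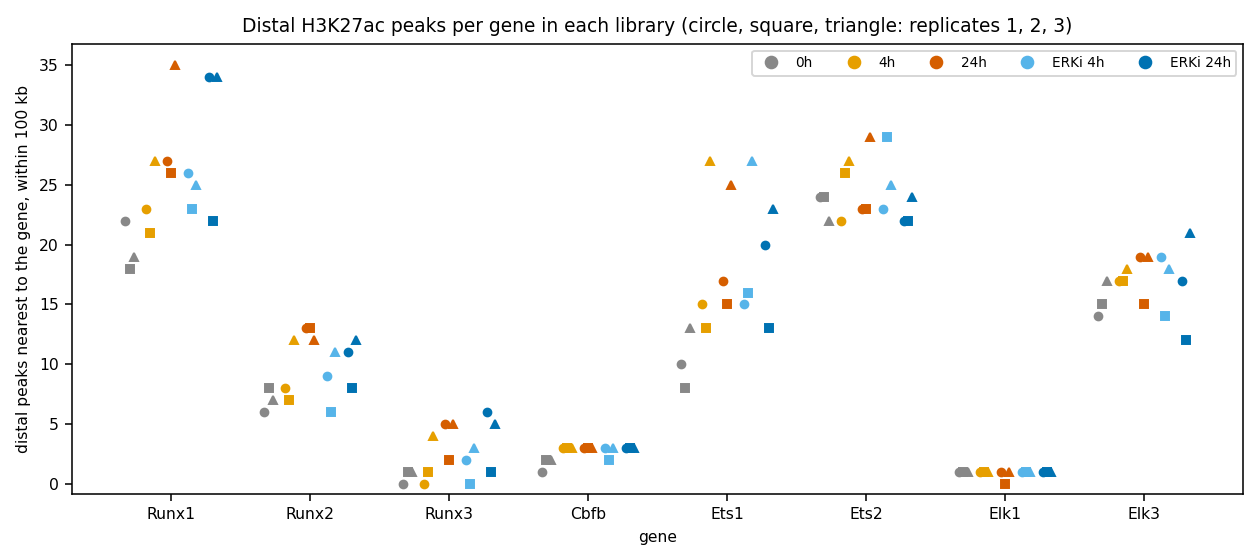
Number of distal peaks nearest to each gene within 100 kb (vertical axis) for 8 genes, 1 point per library, coloured by group with a symbol per replicate. Runx1, Runx2 and Ets1 have more peaks in every 24h library than in any untreated library, while Ets2 and Elk3 overlap.

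The second question was whether blocking ERK signalling altered the mark at these genes. With ERKi for 4h, 0 of the 44 regions were called higher and 0 lower (all regions, 0.00743% and 0.26%), with 5 at an unadjusted p under 0.05 (11.4%, against 5.63% of all regions). With ERKi for 24h the counts were again 0 and 0 (all regions, 3.5% and 3.98%), again with 5 at an unadjusted p under 0.05, here below the share of all regions (11.4%, against 20.8%). Without 4h replicate 2, ERKi 4h replicate 3, ERKi 24h replicate 2 or ERKi 24h replicate 3, 1 region was called lower at 24h. With the replicate block, Runx1 +877 bp was higher at 4h (log2 0.56 ± 0.16, adjusted p = 0.0389) and Runx2 +24.2 kb lower (log2 -0.46 ± 0.12, adjusted p = 0.0231), where 0.835% and 3.43% of all regions were called. At 24h the block called 2 regions higher, both at Ets2, and 7 lower (all regions, 15% and 13.2%). Those 7 were the already named Runx1 -78 kb, Runx2 +25.1 kb, Cbfb +335 bp, Ets2 -19.97 kb and Elk3 -32.4 kb, and Runx2 +24.2 kb (log2 -0.34 ± 0.12, adjusted p = 0.0313) and Runx1 -18.6 kb at chr16:92715162-92717131 (log2 -0.63 ± 0.22, adjusted p = 0.0299). The local background moved in the direction of the pileup in 8 of these 9 regions, all but Ets2 -19.97 kb. By fold enrichment the 9 differences lay between -0.43 and 0.04, with Runx2 +24.2 kb at -0.01 and Runx1 -18.6 kb at -0.27, and none was called in the fit without the block (lowest adjusted p = 0.205).

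The TGF-β and the ERKi comparisons share the DMSO libraries. The 95% intervals of the ERKi difference at 24h were -0.72 to 0.49 at Ets1 -6.75 kb and -0.33 to 0.31 at Elk3 +750 bp. At Elk3 -46.5 kb the interval was -0.54 to 0.53. Losses of the size of the TGF-β differences at 24h lie outside these intervals. This did not hold at every region that rose. Of the 12 regions called higher at 24h against 0h, 9 had an ERKi difference below 0 at 24h. The 12 differences ranged from -1.04 to 0.23. The lowest was at the intergenic Runx1 region upstream of both promoters. Its interval of -1.72 to -0.37 includes a loss as large as its TGF-β difference of 1.40. Whether the ERKi difference itself changed between 4h and 24h was tested as an interaction, and no member region was called with or without the block (of all regions the block called 2.55% higher and 1.86% lower). At an unadjusted p under 0.05 there were 2 of 44 without the block (4.55%, against 5.6% of all regions) and 8 with it (18.2%, against 18.9%). Distal peaks per gene did not separate ERKi from DMSO for any member at 4h (all genes, 1.49% more and 1.09% fewer without overlap) or at 24h (4.19% and 3.11%). Over both times the lowest exact permutation p, with labels exchanged within a time, was 0.35, for Runx2, where the smallest possible p is 0.005.

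The share of regions with a motif lay close to that of all regions. In the 300 bases around the median summit, searched on both strands, TGTGGT was found in 35 of the 150 regions (23.3%, against 20.6% of all 89050), GGAAGT in 32 (21.3%, against 20.1%) and TGANTCA in 18 (12%, against 11.3%). The longer ETS site CCGGAAGT, which holds the shorter one, was found in 0 regions, against 0.657% of all. Of the regions printed above, Ets1 +53.6 kb held the RUNX, ETS core and AP-1 motifs, Runx1 -78 kb the ETS core and AP-1 motifs, Elk3 -32.4 kb the AP-1 motif, Runx1 +37.6 kb the RUNX and ETS core motifs, and Ets1 -6.75 kb held none. These are matches of letters, not measured binding.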

How the data were processed

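H3K27ac ChIP-seq was analysed in 15 libraries of NMuMG cells, 3 in each of 5 conditions. The authors used Bowtie for alignment to mm9 and ran MACS2 at its default settings on every library by itself. The deposited peak lists give, for each peak, the fold enrichment over a local background, the −log10 p-value, the −log10 q-value and an integer score. The control used in peak calling is not given in the sources used here, and total reads per library are not in the peak lists, so the depth is unknown. The 13 other samples of the series (10 RNA and 3 input) were not analysed here.

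The pileup at each summit was solved from the deposited fold enrichment and −log10 p-value, as fold = (pileup + 1)/(background + 1) with a Poisson upper tail. All but 25 of 893719 peaks were recovered within 0.005 of the −log10 p-value, and every member peak was. Overlapping peaks were merged into regions, and each region took the highest pileup of its peaks in a library. The highest fold enrichment was taken in the same way. The log2(pileup + 1) was centred on the library median over the 26934 regions with a peak in every library. Differences were tested on these regions with limma 3.58.1 (R 4.3.3, moderated test with a mean trend, all 15 libraries in 1 fit, Benjamini-Hochberg adjustment over all 26934). Fold changes are on the log2(pileup + 1) scale. The procedure was tested on simulated data.

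Same-numbered libraries deviated together in 30 of 30 pairs of libraries from different conditions (correlation of deviations from the group means, 0.341 to 0.792). A fit with the replicate number as a block is therefore given where it changes a call at a member region. Start sites were those of protein-coding genes in the mm9 annotation. The rule for named regions took every promoter region, the 3 largest called rises and falls of each comparison, and up to 4 gained or lost regions per comparison. The other regions named were chosen after their values were seen. Motif sequences came from the mm9 genome. The member genes and the lists were chosen with earlier results of these data known. Alternatives covered the measure, normalization, peak threshold, merging, regions tested, distances and single libraries.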

Additional observations from a re-analysis of the deposited data

How the results depend on the processing

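The depth of the libraries is unknown, and a region without a peak has no value, so weak signal and no signal cannot be told apart. The 6 regions higher at 4h became 1 with fold enrichment, 1 with the percentile by fold enrichment, 1 with peaks of −log10 q of at least 10 and 14 with the replicate block. The 0 lower at 4h became 1 with the percentile by fold enrichment, 1 with quantile normalization and 2 with the block. The 12 higher at 24h became 3 with fold enrichment, 3 with its percentile, 30 with all regions found in every library of at least 1 condition (where missing values were set to the lowest pileup of the library), 4 with the q threshold and 21 with the block. The 1 lower at 24h became 2, 0, 2, 2, 0, 0 and 9 with fold enrichment, percentile of pileup, percentile of fold enrichment, the wider set of regions, the q threshold, summits within 500 bp of the median summit and the block. For ERKi at 4h the block gave 1 higher and 1 lower in place of 0. For ERKi at 24h, 0 higher became 2 with the wider set and 2 with the block, and 0 lower became 1 with percentile of pileup, 1 with quantile normalization, 4 with the wider set, 1 with peaks within 1000 bp merged and 7 with the block. The wider set admits a region through any group with peaks in all its libraries, and fills missing values of the others with a low value. Differences at such regions are partly set by this filter, so the counts of the wider set add no support. The interaction had 0 calls with and without the block, which changed no call there. The 6 differences in distal peaks became 3 with the q threshold and 2 within 50 kb, and with the replicate block 10 had the same direction in all 3 numbers. That is a looser criterion, met whenever the groups do not overlap, and 3 signs can easily agree by chance. Its share over all genes was not counted, so the 10 cannot be set against the 6.

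Leaving out 1 library gave 2 to 7 regions higher and 0 to 0 lower at 4h, 10 to 15 higher and 0 to 2 lower at 24h, 0 to 0 higher and 0 to 1 lower with ERKi at 24h, 0 to 0 in either direction with ERKi at 4h and for the interaction, and 6 to 8 differences in distal peaks.

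Fold enrichment turned the direction of Ets1 +25.6 kb (-0.026) and Elk3 -50.6 kb (-0.017) at 4h, of Runx1 -84 bp (-0.045), Ets1 +281 bp (-0.022), Ets1 +25.6 kb (-0.22), Ets2 -33.6 kb (0.38), Elk3 +750 bp (-0.16), Elk3 -46.5 kb (-0.11) and Elk3 -50.6 kb (-0.16) at 24h, and of Ets2 +36.1 kb with ERKi at 24h (-0.020), all on the log2 scale. By percentile of fold enrichment, in percentile points, the first 9 of these were -0.314, -0.247, -2.76, -0.473, -11.4, 18.8, -6.05, -6.41 and -9.49 in the same order, and Runx2 +24.2 kb with ERKi at 24h was 4.06. The local background changed in the direction of the pileup at each of the regions called at 4h or 24h, and the cause of that change was not tested.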

Other observations

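The other genes of the ETS family and the partners of the RUNX and ETS factors, each a list chosen with earlier results of these data known, were read from the same fit. Of 21 other ETS genes 20 were annotated, and 10 of them had 36 tested regions. At 4h 1 region was higher (2.78%, beside 3.58% of all), at Ehf, an epithelial ETS factor (0.105 kb downstream of its start, log2 difference 0.70 ± 0.17 (SE), adjusted p = 0.0228 by limma). At 24h 4 regions of Ehf and Etv6 were higher, which is 11.1% of the 36 beside 10.2% of all regions, and 5 were lower, all at Ehf (13.9% beside 7.84%). The largest rise was 54.8 kb downstream of the nearest start of Etv6, a repressor of the family (log2 2.38 ± 0.30, adjusted p = 3.17e-05), and the largest fall at -22.0 kb from the nearest start of Ehf (log2 -1.08 ± 0.28, adjusted p = 0.0102). With ERKi at 24h, 2 Ehf regions were higher (5.56%, beside 3.5% of all) and 2 Etv6 regions lower (5.56%, beside 3.98%), led by one at -28.8 kb from Ehf (log2 1.21 ± 0.27, adjusted p = 0.00941) and one at -60.8 kb from Etv6 (log2 -1.22 ± 0.23, adjusted p = 0.00399). With the replicate block 5 were higher at 24h (13.9%, beside 17.6% of all) and 11 lower (30.6%, beside 20.1%), and with ERKi at 24h 5 were higher (13.9%, beside 15%) and 6 lower (16.7%, beside 13.2%).

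Of 12 partner and corepressor genes, 10 had 32 tested regions, of which 0 were called at 4h without the block. With the block 3 were higher at 4h (9.38%, beside 11.7% of all) and 1 lower (3.1%, beside 5.9%). For ERKi at 4h the block gave 2 higher (6.25%, beside 0.835%) and 1 lower (3.1%, beside 3.43%). At 24h without the block 3 were higher, at Mkl1, a coactivator of serum response factor, and at Tle4, a corepressor (9.38%, beside 10.2% of all). Another 2 were lower (6.25%, beside 7.84%), so that both shares at 24h against 0h were near those of all regions. A region at -65.5 kb from the nearest start of Mkl2 was lower at 24h (log2 -1.09, adjusted p = 0.0103 by limma) and higher with ERKi at 24h than without it (log2 2.10, adjusted p = 0.000345). These comparisons share the 24h libraries. With ERKi at 24h, 3 regions were higher, all at Mkl2 (9.38%, beside 3.5% of all), and 1 was lower, at Mkl1 (3.1%, beside 3.98%). At 24h against 0h the block gave 7 higher (21.9%, beside 17.6%) and 4 lower (12.5%, beside 20.1%). For ERKi at 24h it gave 8 higher (25%, beside 15%) and 3 lower (9.38%, beside 13.2%). For the interaction it called 5 higher, at Mkl1 and Mkl2 (15.6%, beside 2.55%), and 0 lower (beside 1.86%).

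Among 5585 promoter regions, those most like the member promoters over the 15 libraries, by Pearson's r of log2 pileup, were Furin (0.925) and Smtn (0.925) for Runx1 -84 bp, Smad7 (0.897) and Sh3bp4 (0.871) for Runx1 -360 bp, Plec (0.866) and Cd151 (0.866) for Runx2 +69 bp, and Klf3 (0.787) and Ugdh (0.778) for Ets2 +81 bp. The points share libraries and their depth, and these values are a description.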
